A study of Macaca mulatta with 5 samples.

Results

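Loops with a one-sided local background were collected from Hi-C maps of rhesus cortical neurons. The lists give the contacts expected at the loop pixel from each arm of the cross centred on it. At these loops 1 arm gave at least 2 times the expected contacts of the other. A stripe in a contact map would give this shape. They were chosen by the values of the loop lists themselves. A loop entered when its anchor midpoints lay 100 kb to under 1 Mb apart and the ratio of its horizontal to its vertical background was at or above 2 (called horizontal-rich here) or at or below 0.5 (vertical-rich). The rule selected 409 of the 13932 loops of both lists, of which 86 horizontal-rich and 112 vertical-rich loops came from the saline map and 87 and 124 from the morphine map. The other loops of the same span are called balanced and number 3176 in the saline and 4823 in the morphine map. The lists give 4 background values per loop and no pixels beyond it, so whether the richer arm runs on to the diagonal of the map, as a stripe would, was not measured here.

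A chromatin loop joins 2 loci, its anchors, that touch each other more often than their surroundings do. Cohesin, a ring-shaped complex, draws out loops by extrusion and halts at sites bound by the zinc-finger protein CTCF, so that many loops lie between CTCF sites that face each other. When 1 side of an extruding complex is held at an anchor while the other side keeps moving, that anchor meets a run of loci in turn, which shows in a contact map as a line, called a stripe or flame. A loop caller compares the loop pixel with local backgrounds: a donut around it, its lower left corner, and a horizontal and a vertical strip through it. In a map drawn with the upstream anchor on the rows, the horizontal strip holds the contacts of the first (upstream) anchor with loci beside the second, and the vertical strip holds the contacts of the second (downstream) anchor with loci beside the first. Neither the files nor the labels state this orientation, so both anchors are given, except for the ratios of loops that share an anchor with a member.

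Hi-C ligates pieces of crosslinked DNA that lie close together and reads the pairs. The neurons were purified from the cortex of male rhesus monkeys (Macaca mulatta) aged 3 to 4 years, 2 per group. Monkeys of the morphine group received this mu-opioid receptor agonist under the skin 3 times a day for 90 days at doses raised from 3 to 15 mg/kg, and those of the saline group received saline on the same schedule. The series holds 2 saline and 3 morphine libraries, so some morphine libraries come from the same monkey. The lists do not tell libraries apart and were read as a single map per group, which leaves the groups with 1 sample each, no replicate spread and no p-value. There are 5507 saline loops with 119909 contacts in their pixels and 8425 morphine loops with 239042 contacts. The depth of the libraries is unknown. Neuronal identity could not be checked, since the files hold no expression values. Intervals are 95% intervals, exact Clopper-Pearson for a share and Newcombe for a difference of shares, and cover counting error over loops only. Loops that share an anchor are not independent. Differences from balanced loops were computed for 72 shares without adjustment for their number, and 27 had an interval that left out 0.

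In the saline map the horizontal-rich loops made up 2.55% of the 3374 mid-range loops (interval 2.04 to 3.14%) and the vertical-rich loops 3.32% (2.74 to 3.98%). The morphine shares of 5034 mid-range loops were 1.73% (1.39 to 2.13%) and 2.46% (2.05 to 2.93%). These shares are set by the rule and are given as a description. Vertical-rich loops were 56.6% of the members in the saline map (49.4 to 63.6%) and 58.8% in the morphine map (51.8 to 65.5%), while the median ratio over all mid-range loops was 0.986 and 0.988.

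The members did not have high backgrounds from both arms. These values are contacts expected at the loop pixel from a strip, not contacts counted in that strip. At saline horizontal-rich loops the median horizontal background was 3.12 expected contacts and the median vertical one 1.33, against 4.15 and 4.16 at balanced loops. At saline vertical-rich loops the medians were 1.51 (horizontal) and 3.71 (vertical). The background from the richer arm therefore had a median below that of balanced loops, and that from the poorer arm a median far below it. The morphine map had the same order, with 4.51 and 1.71 at horizontal-rich loops, 1.92 and 4.78 at vertical-rich loops, and 5.83 and 5.85 at balanced loops. The pixel itself held a median of 16.5 contacts at horizontal-rich, 17 at vertical-rich and 18 at balanced loops of the saline map, and 19, 19 and 22 in the morphine map.

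**Figure D1:**
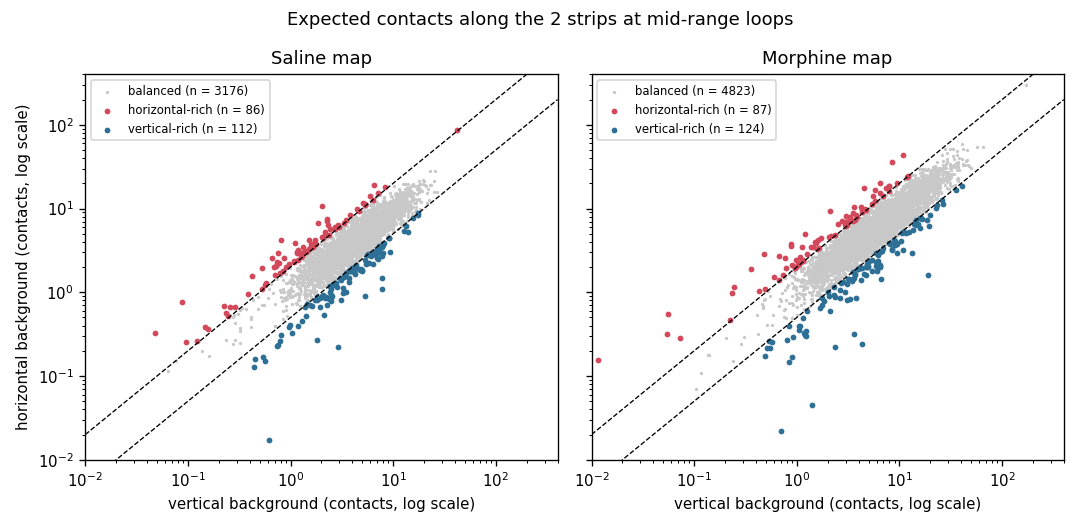
Expected contacts of the vertical (x axis) and horizontal (y axis) strip at each mid-range loop, both on log scales, with the saline map on the left and the morphine map on the right. Each point is 1 loop, the dashed lines mark ratios of 2 and 0.5 that chose the members, and loops with a background of 0 (1 saline, 4 morphine) are left out. The members sit just outside the dashed lines along the whole cloud and spread farthest from them where both backgrounds are low.

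Read against the richer arm, the members had median folds near those of balanced loops over a fixed strip. The richer strip of balanced loops was not used, so the medians are not like for like. These folds divide by the values that chose the members, and a larger fold over the poorer arm is built in. They are given as a description only. The observed contacts were a median of 4.49 times the horizontal background at saline horizontal-rich loops and 4.44 times the vertical background at vertical-rich loops, against 4.34 (horizontal) and 4.30 (vertical) at balanced loops. The morphine medians were 3.79 and 3.86, against 3.70 and 3.67. Against the poorer arm the medians were 10.96 (horizontal-rich) and 10.75 (vertical-rich) in the saline map and 9.58 and 9.55 in the morphine map. The enrichment over the donut background, which covers both arms' surroundings, was 7.68 and 8.05 at saline members against 5.15 at balanced loops, and 6.79 and 7.80 against 4.30 in the morphine map. The authors' q-value for the richer arm was above 0.1 at 26 of 86 saline horizontal-rich loops (30.2%), 21 of 112 vertical-rich loops (18.8%), and 19 of 87 and 28 of 124 morphine members (21.8% and 22.6%). Among balanced loops the share was 15.2% for the horizontal and 17.2% for the vertical strip in the saline map and 18.6% for either in the morphine map. Only the saline horizontal-rich share stood far from these values, and the differences were not tested. The balanced shares are again for a fixed strip and not for the richer one.

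The limits cut through a continuous range of ratios. The saline members nearest the upper limit had ratios of 2.015 and 2.021 and the nearest loops outside it 1.997 and 1.996. Morphine loops inside had 2.006 and 2.015 and those outside 1.995 and 1.994. At the lower limit, the nearest saline members had 0.498 and 0.497 and the nearest other loops 0.5000 and 0.5003, and in the morphine map these were 0.499 and 0.497 inside and 0.5003 and 0.501 outside. The median ratio was 2.24 at saline and 2.36 at morphine horizontal-rich loops, and 0.417 and 0.412 at vertical-rich loops. Both strips reached 1 expected contact at 55 of 86 horizontal-rich and 71 of 112 vertical-rich loops of the saline map and at 61 of 87 and 86 of 124 of the morphine map. At the remaining members at least 1 side of the ratio rests on less than 1 expected contact.

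A loop chosen in 1 map could be looked up in the other, whose values the rule did not use there. Matches were reciprocal nearest loops with both anchors overlapping after an extension of 10 kb. A match was found for 66 of 86 saline horizontal-rich loops (76.7%), 13.1 points above balanced loops (interval of the difference 2.99 to 20.9), and for 74 of 112 vertical-rich loops (66.1%, 2.41 points, -6.91 to 10.7). Over all saline mid-range loops 64.1% had a match. Of morphine members, 50 of 87 horizontal-rich loops (57.5%, 14.9 points above balanced, 4.34 to 24.9) and 61 of 124 vertical-rich loops (49.2%, 6.65 points, -2.11 to 15.4) had one, against 43.0% of all morphine mid-range loops. The higher share of horizontal-rich loops did not hold under every setting. With both backgrounds at or above 1, its difference from balanced loops was 7.55 points in the saline (-5.61 to 18.0) and 10.1 points in the morphine map (-2.28 to 22.2). With limits of 1.5 and its inverse, it was 3.45 points for saline horizontal-rich loops (-2.04 to 8.60). For morphine horizontal-rich loops it was 6.56 points (1.74 to 11.4). The differences for vertical-rich loops were 4.27 points in the saline (-0.773 to 9.02) and 7.96 points in the morphine map (3.43 to 12.5). Both morphine intervals left out 0. With limits of 3 and its inverse, 15 of 16 saline horizontal-rich loops had a match (29.9 points, 7.80 to 35.3). So did 17 of 20 vertical-rich loops (21.2 points, 0.0857 to 31.1). The morphine differences there were 9.52 (-10.5 to 28.8) and 10.5 points (-6.78 to 27.0). At the limits of the rule, horizontal-rich minus vertical-rich loops gave 10.7 points in the saline (-2.16 to 22.6) and 8.28 points in the morphine map (-5.34 to 21.4). The directions were thus not told apart.

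The side of the richer arm carried over at most matched members. Of saline horizontal-rich loops, 53 of 66 had a ratio above 1 in the morphine map (80.3%, 68.7 to 89.1%), where 47.5% of all matched saline mid-range loops did. Of saline vertical-rich loops, 67 of 74 had a ratio below 1 there (90.5%, 81.5 to 96.1%), against 52.5% of all. Looked up in the saline map, 46 of 50 morphine horizontal-rich loops were above 1 (92.0%, 80.8 to 97.8%, against 48.1%) and 55 of 61 vertical-rich loops below 1 (90.2%, 79.8 to 96.3%, against 51.9%). The differences from balanced loops were 32.5 points (21.2 to 40.6) and 38.3 points (29.2 to 43.6) for the saline sets and 43.8 points (32.8 to 49.1) and 38.4 points (28.1 to 44.0) for the morphine sets.

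The size of the imbalance carried over in part. The median ratio of matched saline horizontal-rich loops was 2.31 where they were chosen and 1.51 at their morphine matches, and that of vertical-rich loops 0.407 and 0.595. Morphine members went from 2.36 in the morphine to 1.69 in the saline map and from 0.404 to 0.566. All 4 medians lay nearer to 1 in the map that had not chosen the loops. Choosing loops by an extreme ratio in 1 map builds in such a shift, so it is given as a description only. Past the same limit lay 16 of 66 saline horizontal-rich loops (24.2%, 14.5 to 36.4%, against 2.27% of all matched) and 26 of 74 vertical-rich loops (35.1%, 24.4 to 47.1%, against 2.87%). For morphine members these were 16 of 50 (32.0%, against 3.05% of all) and 25 of 61 (41.0%, against 3.37%). The opposite limit was passed by 2 of 66 and 0 of 74 saline and 0 of 50 and 2 of 61 morphine members, where the exact interval of a count of 0 runs up to 4.86% of 74 loops and 7.11% of 50 loops (4.05% and 6.00% by the rule of 3 counts). As a description over the 2158 saline mid-range loops with finite log2 ratios in both maps, these ratios correlated with Pearson's r = 0.55 and Spearman's rho = 0.48, and within the 2021 balanced ones both were 0.43. Points of this correlation share the pooled libraries of each map and, in places, an anchor.

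**Figure D2:**
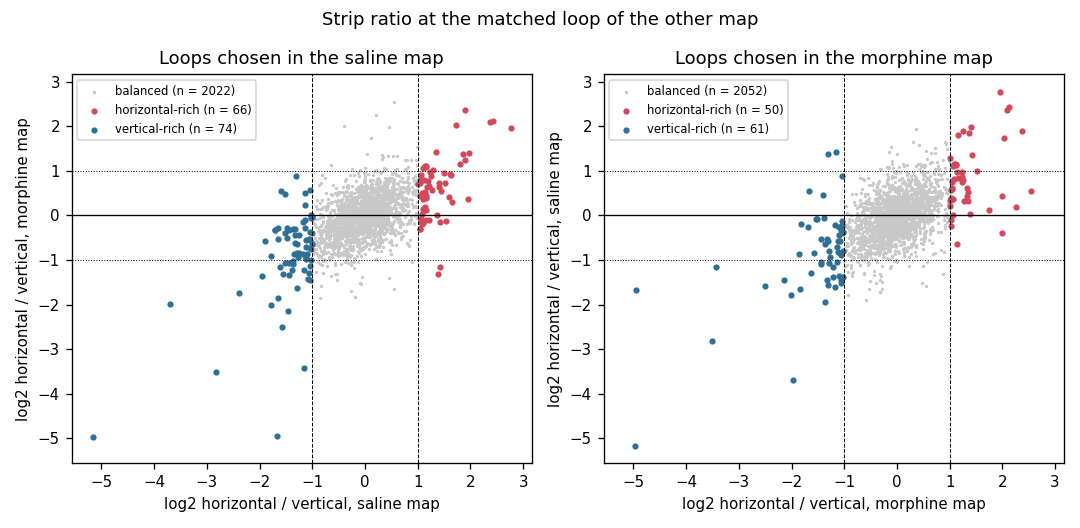
log2 ratio of horizontal to vertical background in the map that chose the loop (x axis) and at the matched loop of the other map (y axis), for saline loops on the left and morphine loops on the right. Points are loops, dashed and dotted lines mark ratios of 2 and 0.5, and 4 loops per panel with a background of 0 are left out. Most red points lie above and most blue points below the solid line at an even ratio, and fewer pass the dotted lines.

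Horizontal-rich in both maps were 16 loops on 10 chromosomes, 8 of them at the identical pixel, and vertical-rich in both were 25 loops on 15 chromosomes, 13 at the identical pixel. No genome of the files' build was at hand, so no locus was assigned to a gene and positions are given without a build, counted from 1. The horizontal-rich loop with the most contacts over both maps joins 40770001 to 40780000 and 41160001 to 41170000 on chromosome 16. It held 28 contacts in the saline map with a horizontal background of 10.9 and a vertical one of 2.01 expected contacts (ratio 5.40). The morphine map gave it 76 contacts with 36.5 and 8.40 (ratio 4.34). The first anchor of this loop is shared, in the saline map, with another horizontal-rich loop that ends at 41210001 to 41220000, with 22 contacts and a ratio of 3.11 (1.88 in the morphine map). The horizontal arm was thus the richer at both loops, while contacts of this anchor with other loci were not measured. The second anchors of the pair lie close together, so each loop may add contacts to the strip of the other.

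The next of the horizontal-rich loops found in both maps joins 143175001 to 143180000 and 143275001 to 143280000 on chromosome 6. It had 24 contacts over backgrounds of only 0.325 and 0.0477 in the saline map (ratio 6.81) and 51 contacts over 0.281 and 0.0721 in the morphine map (ratio 3.90), so that its high ratios rest on under 1 expected contact on either side. On chromosome 20, the loop from 28155001 to 28160000 and 28340001 to 28345000 had 16 contacts over 2.95 and 0.748 in the saline map (ratio 3.94) and 45 contacts over 8.04 and 3.04 in the morphine map (ratio 2.65). On chromosome 11, the loop from 50345001 to 50350000 and 50730001 to 50735000 had 23 contacts over 4.19 and 0.812 (ratio 5.16) and 34 contacts over 3.75 and 0.877 (ratio 4.27). A loop on chromosome 19 from 33950001 to 33960000 and 34100001 to 34110000 stayed close to the limit in both maps, with ratios of 2.22 (21 contacts) and 2.13 (46 contacts, at anchors of 5 kb within or beside the saline ones).

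Among the vertical-rich loops found in both maps, the one with the most contacts joins 4430001 to 4440000 and 4860001 to 4870000 on chromosome 3. It held 40 contacts over a horizontal background of 8.49 and a vertical one of 17.4 in the saline map (ratio 0.488) and 75 contacts over 18.4 and 40.5 in the morphine map (ratio 0.455). On chromosome 13, the loop from 30500001 to 30510000 and 31130001 to 31140000 had 29 contacts over 3.06 and 9.37 (ratio 0.327) and 62 contacts over 6.55 and 14.7 (ratio 0.445). Its second anchor is also the second anchor of a saline vertical-rich loop that starts at 30540001 to 30550000, with 36 contacts and a ratio of 0.416 (0.525 in the morphine map). This pair mirrors the chromosome 16 pair, with a downstream anchor shared and the vertical arm richer. The first anchors of this pair also lie close together, so the same limit holds. On chromosome 1, the loop from 36755001 to 36760000 and 36880001 to 36885000 had nearly the same ratio in both maps, 0.445 with 30 contacts and 0.430 with 34 contacts. At 2 others the ratio rests on low values: on chromosome 9, from 36950001 to 36960000 and 37610001 to 37620000, 47 contacts stood over 0.266 and 1.82 in the saline map, and the matched loop of the morphine map had 23 contacts over 0 and 0.406. On chromosome 3, from 55245001 to 55250000 and 55695001 to 55700000, 17 contacts stood over 0.931 and 2.08 in the saline map and 50 contacts over 0.221 and 2.37 in the morphine map.

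Some members with many contacts had a one-sided background in 1 map only. The saline horizontal-rich loop with the most contacts, from 38440001 to 38450000 and 38540001 to 38550000 on chromosome 19, had 228 contacts and a ratio of 2.05, and its match in the morphine map had 635 contacts and a ratio of 1.74. The horizontal-rich loop of the morphine map with the most contacts lies on chromosome 20 from 39890001 to 39900000 and 40010001 to 40020000. It had 127 contacts over 43.1 and 10.9 expected contacts (ratio 3.96), and its match in the saline map had 44 contacts and a ratio of 1.36. The leading vertical-rich loop of the morphine map, from 8160001 to 8170000 and 8500001 to 8510000 on chromosome 5, had 95 contacts over 2.93 and 9.49 (ratio 0.309) and in the saline map 20 contacts and a ratio of 0.830. At these 3 loops the ratio of the other map lay on the same side of 1. It lay on the other side at the saline horizontal-rich loop from 16680001 to 16690000 and 16780001 to 16790000 on chromosome 20, which had 45 contacts and a ratio of 2.06, and in the morphine map 131 contacts and a ratio of 0.804. The most extreme vertical-rich loop of the morphine map with at least 20 contacts and at least 2 expected contacts on both arms, from 15390001 to 15395000 and 15560001 to 15565000 on chromosome 19, had a ratio of 0.226 (36 contacts) and passed the limit in the saline map too, with 0.365 (22 contacts).

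The share of members was highest where the surrounding background was lowest. Among saline mid-range loops with a donut background under 1 expected contact, 39 of 126 were members of either direction (31.0%, 23.0 to 39.8%), and among those at 8 or more, 8 of 305 were (2.62%, 1.14 to 5.10%). Morphine shares at these ends were 40 of 103 (38.8%, 29.4 to 48.9%) and 26 of 1326 (1.96%, 1.28 to 2.86%). A ratio of 2 small numbers is the less certain the smaller they are, and the lists give no error for a background. The median donut background was 1.79 at saline horizontal-rich, 2.16 at vertical-rich and 3.55 at balanced loops, and 2.42, 2.57 and 4.98 in the morphine map.

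**Figure D3:**
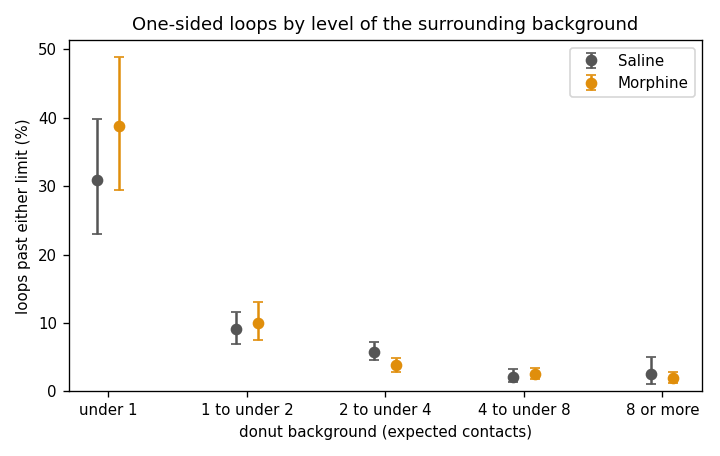
Share of mid-range loops that were members of either direction (y axis, percent) in 5 classes of the donut background in expected contacts (x axis), for the saline and the morphine map. Points are shares and bars are exact 95% intervals. In both maps the share is above 30% under 1 expected contact and under 3% at 4 or more.

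Members of either direction were less frequent in the morphine than in the saline map, with a difference of -1.68 points (interval -2.67 to -0.728 points), and with -0.821 points (-1.49 to -0.197) for horizontal-rich and -0.856 points (-1.62 to -0.133) for vertical-rich loops. The backgrounds of the morphine map were higher, as the donut medians show. Within the classes of donut background the morphine share was lower in 2 of 5, with differences of -1.98 points from 2 to under 4 expected contacts (-3.68 to -0.347) and -0.662 points at 8 or more (-3.21 to 0.907). In the other 3 it was higher by 7.88 points under 1 (-4.41 to 20.05 points), 0.986 points from 1 to under 2 (-2.47 to 4.62 points) and 0.344 points from 4 to under 8 (-0.880 to 1.46 points). In 4 of the 5 classes the interval included 0, and treatment, monkeys and contacts per map cannot be told apart here.

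Smaller anchors and wider spans held more members in both maps. With anchors of 5 kb, 10.3% of saline mid-range loops were members (106 of 1032), against 3.93% with anchors of 10 kb (92 of 2342). Morphine shares were 5.89% (122 of 2073) and 3.01% (89 of 2961). By span, the saline share was 4.74% from 100 to under 200 kb, 5.61% from 200 to under 400 kb and 8.81% from there to 1 Mb, and the morphine share 3.01%, 4.77% and 5.48%. Loops outside the span of the rule followed the same order, with ratios past the limits at 3.74% of saline and 2.32% of morphine loops under 100 kb and at 16.6% (26 of 157) and 15.3% (38 of 249) of loops of 1 Mb or more.

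If 1 anchor contacts a run of loci, it may also be the anchor of several called loops. Sharing was therefore counted at each end, as overlap with the anchor of another loop at the same end. Vertical-rich loops shared their second anchor in 38 of 112 cases in the saline map (33.9%, 12.5 points above balanced loops, 4.22 to 21.7) and in 45 of 124 in the morphine map (36.3%, 7.70 points, -0.340 to 16.5). Their first anchor was shared in 17 of 112 (15.2%) and 19 of 124 cases (15.3%, -14.6 points from balanced loops of the morphine map, -20.0 to -7.07). Over all mid-range loops the first anchor was shared at 21.1% of saline and 29.6% of morphine loops, and the second at 21.8% and 28.5%.

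Horizontal-rich loops had the opposite order in the morphine map. Their first anchor was shared in 31 of 87 cases (35.6%, 5.75 points above balanced loops, -3.60 to 16.3) and their second in 13 of 87 (14.9%, -13.6 points from balanced loops, -19.8 to -4.60). In the saline map the order was weak, with 19 of 86 (22.1%) at the first and 16 of 86 (18.6%) at the second anchor. Set directly against each other, horizontal-rich minus vertical-rich loops differed at the first anchor by 20.3 points in the morphine map (8.47 to 32.0) and 6.91 points in the saline map (-3.88 to 18.2). At the second anchor they differed by -21.3 points (-32.0 to -9.38) and -15.3 points (-26.8 to -2.84). The order within morphine horizontal-rich loops changed with span. From 100 to under 200 kb the first anchor was shared at 17 of 33 loops (26.3 points above balanced, 9.89 to 42.4) and the second at 4 of 33. From 400 kb to under 1 Mb these were 3 of 22 (-22.9 points, -32.3 to -2.98) and 4 of 22. Saline horizontal-rich loops of 100 to under 200 kb shared the first anchor at 10 of 31 (14.3 points above balanced, 0.456 to 32.0) and the second at 6 of 31. The first was shared at 4 of 33 from 200 to under 400 kb (-11.5 points, -19.2 to 3.90). From there to 1 Mb it was shared at 5 of 22 (-1.82 points, -14.9 to 19.1).

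This sharing is not wholly independent of the rule, since a second loop close by on the same strip adds contacts to the strip that the background is read from. Counting only partners whose other anchor lay 200 kb or more away, an alternative chosen after seeing the data, gave smaller counts. First anchors were then shared at 4 of 86 saline horizontal-rich and 10 of 112 vertical-rich loops (7.53% over all mid-range loops) and second anchors at 5 of 86 and 7 of 112 (7.88% over all). Among morphine loops they were 12 of 87 and 14 of 124 for the first anchor (12.5% over all) and 9 of 87 and 13 of 124 for the second (10.8% over all). No interval of a difference from balanced loops left out 0 in these counts over all spans. Within classes of span some did: 7 of 33 morphine horizontal-rich loops of 100 to under 200 kb had a far partner at the first anchor (15.4 points above balanced, 4.76 to 31.9), and 3 of 38 vertical-rich loops of 400 kb to under 1 Mb did (-19.4 points, -25.2 to -6.18). With limits of 1.5 and its inverse, the difference for morphine vertical-rich loops at the first anchor was -3.15 points (-5.61 to -0.171).

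**Figure D4:**
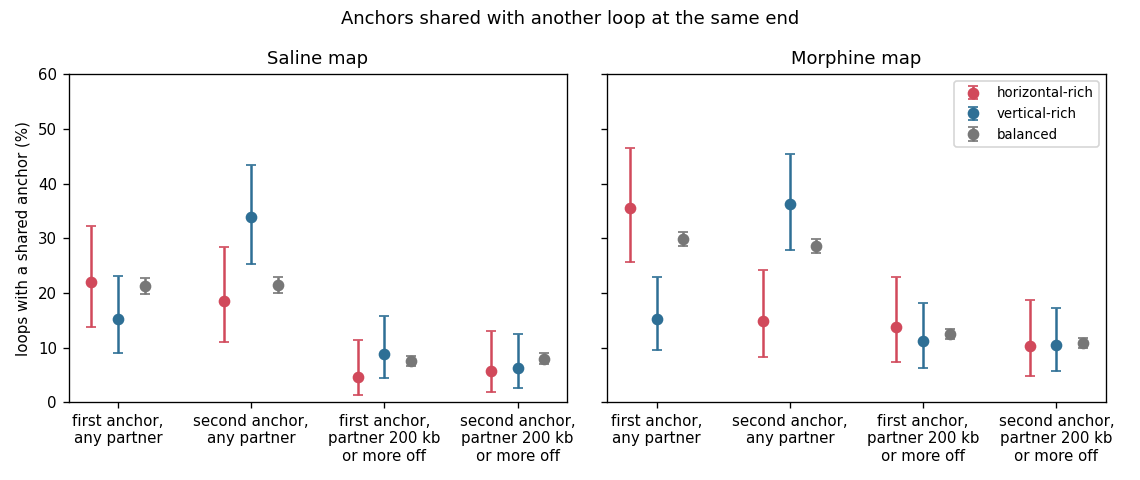
Share of loops (y axis, percent) whose first or second anchor is also an anchor, at the same end, of another loop of the same map, counted over any partner or only partners whose other anchor lies 200 kb or more away (x axis), with the saline map on the left and the morphine map on the right. Points are shares of horizontal-rich, vertical-rich and balanced loops and bars are exact 95% intervals. With any partner, second anchors of vertical-rich loops are shared at 33.9% and 36.3%, and with far partners the 3 sets overlap.

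Loops that shared the anchor on the richer arm's side were then looked at for their own ratio. In the orientation assumed above this is the first anchor of horizontal-rich and the second of vertical-rich loops. Partners of members at the opposite anchor were not looked at, so whether the lean is particular to this end was not tested. The partner's ratio was on the member's side of 1 for 14 of 20 partners of saline horizontal-rich and 36 of 44 of vertical-rich loops, and for 38 of 45 and 49 of 56 in the morphine map. Balanced loops had partners of the same lean: at a shared first anchor 61.1% of saline and 60.6% of morphine partners had a ratio above 1, and at a shared second anchor 60.2% and 61.7% had one below 1. Most partners of members lay under 200 kb away and may lie on the strip that the rule had read, whose length is not given. Among partners 200 kb or more away the member's side was kept in 2 of 4, 6 of 7, 12 of 16 and 13 of 17 cases, and for balanced loops the shares were 55.6% and 59.3% above 1 at the first and 51.8% and 55.7% below 1 at the second anchor. The difference between members and balanced loops was not tested. At least 2 members of 1 direction met at the same end of 2 horizontal-rich and 6 vertical-rich anchors in the saline map and of 3 and 8 in the morphine map. The anchor with the most was the second anchor at 22950001 to 22960000 on chromosome 19 in the morphine map, where 3 vertical-rich loops of 290 to 535 kb ended with 20 to 28 contacts and ratios of 0.217 to 0.382. In the saline map the second anchor at 31130001 to 31140000 on chromosome 13 held 2, described above, of 590 and 630 kb.

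The position of merged pixels was read next, which the rule did not use directly. Merged pixels may lie on the strips that the backgrounds are read from, so this readout is not wholly independent of the rule. The caller merges neighbouring pixels into 1 loop and gives their centroid. Among loops of more than 1 pixel, the centroid lay farther off along the second anchor's axis than along the first's in 31 of 56 saline horizontal-rich loops (55.4%) and 18 of 60 vertical-rich loops, with 49.0% over all mid-range loops. The vertical-rich loops differed from balanced loops by -19.4 points (-29.7 to -6.72), and horizontal-rich minus vertical-rich loops gave 25.4 points (7.36 to 41.2). In the morphine map the shares were 31 of 53 (58.5%) and 34 of 81 (42.0%, -8.48 points from balanced, -18.8 to 2.52) with 50.4% over all, and the difference between the sets was 16.5 points (-0.737 to 32.4). At saline vertical-rich loops the centroid thus lay farther off along the first anchor's axis more often than at balanced loops. In the orientation given above the vertical strip runs along that axis. The offset of a centroid does not measure how far a pixel cluster extends. With anchors of 10 kb only, the morphine horizontal-rich share fell to 5 of 16 (31.2%), below the 38.7% of vertical-rich loops, so the direction in the morphine map does not hold across anchor sizes.

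Topologically associating domains are stretches of chromosome with more contacts inside than across their ends. The saline list holds 1198 and the morphine list 1244 of them, in bins of 40 kb. In the morphine map both anchors lay inside 1 domain at 61 of 87 horizontal-rich loops (70.1%, -14.5 points from balanced loops, -24.9 to -5.84) and 90 of 124 vertical-rich loops (72.6%, -12.0 points, -20.5 to -4.87), against 84.1% of all mid-range loops. Saline anchors did at 73 of 86 (84.9%) and 96 of 112 (85.7%), against 88.3% of all, and the intervals of the differences included 0 (-12.7 to 2.58 and -10.5 to 2.66 points). In the small saline sets with limits of 3 and its inverse, 10 of 16 horizontal-rich loops did (-26.0 points from balanced, -49.9 to -6.94). Of the vertical-rich loops 15 of 20 did (-13.5 points, -35.4 to 0.364). Morphine counts at these limits were 13 of 21 (-22.3 points, -43.4 to -4.97) and 21 of 30 (-14.2 points, -32.1 to -0.871). Members of the morphine map were thus less often enclosed by a called domain than balanced loops of that map.

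The remaining members fell on either side of a boundary or outside the called domains. The anchors lay in 2 domains at 18 of 124 morphine vertical-rich loops (14.5%, 8.73 points above balanced, 3.55 to 16.02) and 8 of 87 horizontal-rich loops, against 6.06% of all. Saline anchors did at 11 of 112 (5.04 points above balanced, 0.713 to 12.0) and 6 of 86, against 5.01% of all. Both anchors lay outside any domain at 10 of 87 morphine horizontal-rich loops (11.5%, against 5.32% of all) and at 5 of 124 vertical-rich, 4 of 86 saline horizontal-rich and 1 of 112 vertical-rich loops (3.23% of all saline mid-range loops). A single anchor lay outside at 8 of 87 and 11 of 124 morphine members (4.55% of all) and at 3 of 86 and 4 of 112 saline members (3.47% of all).

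**Figure D5:**
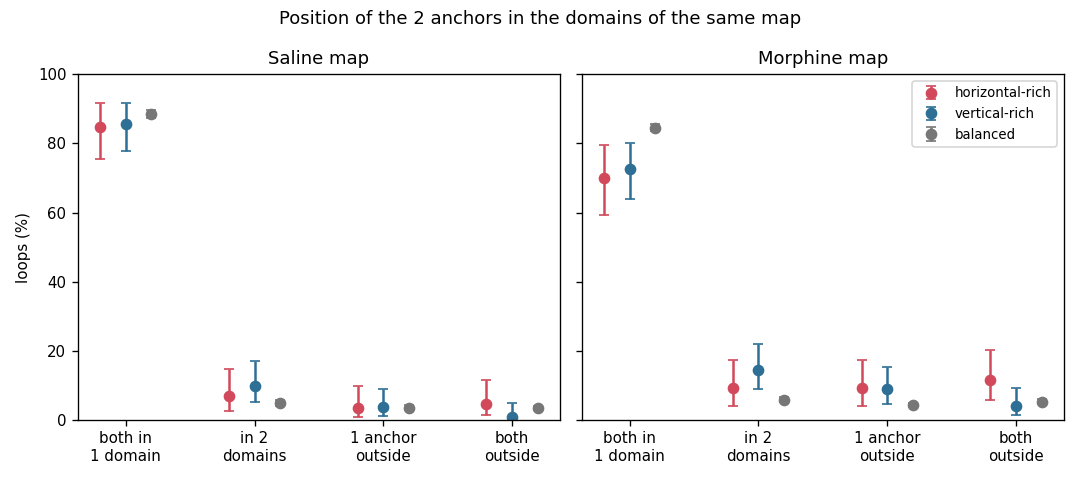
Share of loops (y axis, percent) whose anchors lie both in 1 domain, in 2 domains, with 1 anchor outside any domain or with both outside (x axis), for the saline map on the left and the morphine map on the right. Points are shares of horizontal-rich, vertical-rich and balanced loops and bars are exact 95% intervals. In the morphine map 70.1% and 72.6% of the members lie in 1 domain, below the balanced loops.

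Members span more than balanced loops, with medians of 250 kb (horizontal-rich) and 290 kb (vertical-rich) against 225 kb in the morphine map. Saline medians were 255 and 252.5 kb against 220 kb. An effect of span on enclosure was not tested. Within 3 classes of span the members of the morphine map lay below balanced loops in every class. For horizontal-rich loops the difference was -9.08 points from 100 to under 200 kb (-25.9 to 2.45), -10.1 points from 200 to under 400 kb (-27.3 to 1.79) and -28.8 points from there to 1 Mb (-48.8 to -10.1). For vertical-rich loops it was -11.5 points (-29.3 to 1.09), -13.7 points (-26.7 to -3.36) and -9.70 points (-25.5 to 1.90). In 2 of these 6 classes the interval left out 0. Without chromosome 19 the morphine shares were 71.4% and 71.8%. With the domains of the saline map the horizontal-rich loops differed from balanced loops by -13.6 points (-23.9 to -5.13), and the vertical-rich loops came to 79.0%, a difference of -5.87 points (-13.9 to 0.450). Morphine minus saline, the share in 1 domain differed by -14.8 points for horizontal-rich (-26.7 to -2.29), -13.1 points for vertical-rich (-23.1 to -2.70) and -3.86 points for balanced loops (-5.35 to -2.34). Whether members differed from balanced loops in this respect was not tested.

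The distance of each anchor to the nearest domain boundary was compared next. The first anchor was the nearer to a boundary at 48 of 86 saline horizontal-rich loops (55.8%) and 50 of 112 vertical-rich loops (44.6%), against 51.3% of all mid-range loops, and at 46 of 87 (52.9%) and 57 of 124 (46.0%) in the morphine map, against 50.2% of all. No interval of a difference from balanced loops left out 0. With the boundaries of the saline map in place of its own, the first anchor was the nearer at 56 of 87 morphine horizontal-rich loops (64.4%, 53.4 to 74.4%), an interval that left out an even split. Within 40 kb of a boundary lay, in the morphine map, the first anchor of 9 of 87 horizontal-rich loops (10.3%, 6.34 points above balanced, 1.501 to 14.5, against 4.15% of all) and the second anchor of 10 of 124 vertical-rich loops (8.06%, 4.54 points above, 0.872 to 10.7, against 3.62% of all). The other anchor did in 2 of 87 and 7 of 124 cases. Horizontal-rich minus vertical-rich loops gave 4.70 points at the first (-2.64 to 13.4) and -5.77 points at the second anchor (-12.1 to 0.990), and both intervals included 0. In the saline map the counts were 3 of 86 and 3 of 112 for the first (3.14% of all) and 1 of 86 and 4 of 112 for the second anchor (3.26% of all), too few to compare.

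The authors' lists of differential loops, whose criterion was not known here, were searched for the members. The saline differential list held 2 of 86 horizontal-rich loops (-0.603 points from balanced, -2.41 to 5.18) and 0 of 112 vertical-rich loops (-2.93 points, -3.57 to 0.430), against 2.82% of all mid-range loops. The exact interval of 0 of 112 runs up to 3.24% (2.68% by the rule of 3 counts). The morphine differential list held 2 of 87 (-3.78 points, -5.59 to 1.96) and 3 of 124 (-3.66 points, -5.40 to 0.843), against 5.92% of all. All 4 intervals of the differences included 0, so at these counts members were not told apart from balanced loops.

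The members lay on many chromosomes. Chromosome 7 held the most, with 23 of the 198 saline members (11.6% of members, against 6.64% of mid-range loops) and 25 of the 211 morphine members (11.8%, against 6.87%). On that chromosome 10.3% of saline mid-range loops (6.62 to 15.0%) and 7.23% of morphine ones (4.73 to 10.5%) were members. Chromosome 19 had the shares of 12 of 96 (12.5%, 6.63 to 20.8%) and 24 of 259 (9.27%, 6.03 to 13.5%), and chromosome 5 had 2 of 147 in the saline map (1.36%, 0.165 to 4.83%) and 4 of 129 in the morphine map (3.10%, 0.851 to 7.75%). These chromosomes were picked after their values were seen.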

How the data were processed

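The deposited files give 1 loop list, 1 differential loop list and 1 domain list per group, with no values of single libraries. Per the file headers, the observed column holds raw counts of contacts. The 4 backgrounds per loop, as the authors deposited them, are contacts computed from the surroundings and need not be whole. The authors' q-value columns are named FDR per the file headers, and the domain lists carry a boundary score deposited by the authors on an unstated scale. The columns are laid out as by the HiCCUPS caller; the sources used here name no caller, aligner or version. Only hg19 appears in the submitters' processing notes, yet positions run past the ends of hg19 chromosomes, so coordinates are of an unnamed rhesus assembly.

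Members and lists were chosen with earlier results of these data known. Loops were named by rule: per map and direction the 3 with the most contacts, the 3 most extreme with at least 20 contacts and backgrounds of at least 2, the 2 on either side of each limit, the 5 with the most contacts that were members in both maps, and anchors with 2 or more members; only some are printed. A boundary is a domain end, with gaps of up to 2 bins of 40 kb joined. Shares and intervals were computed in Python 3.11.15 (scipy 1.17.1, statsmodels 0.14.6), with functions tested on simulated data. Alternatives covered ratio limit, minimum background, contacts, anchor size, matching, q-value limit and boundary list.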

Additional observations from a re-analysis of the deposited data

How the results depend on the processing

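Of 180 alternative values for 36 results, 136 moved by less than their counting interval and 44 moved further. Shares of horizontal-rich loops were 1.72% (saline) and 1.25% (morphine) with both backgrounds at or above 1, 1.86% and 1.33% with at least 20 contacts, 5.04% and 2.56% with 5 kb anchors and 1.45% and 1.15% with 10 kb anchors. Vertical-rich shares were 2.22% and 1.76%, 2.71% and 1.96%, 5.23% and 3.33%, and 2.48% and 1.86% under the same settings. With limits of 3 and its inverse the sets were small. Saline horizontal-rich loops then kept their side in 14 of 15 cases (93.3%). They shared first anchors in 2 of 16 (12.5%) and had the first anchor nearer to a boundary in 7 of 16 (43.8%). For saline vertical-rich loops second anchors were shared in 9 of 20 cases (45.0%) and the first was nearer in 7 of 20 (35.0%). Morphine horizontal-rich loops shared first anchors in 5 of 21 cases (23.8%) and second in 1 of 21 (4.76%). Morphine vertical-rich loops had the first nearer in 17 of 30 (56.7%). With limits of 1.5 and its inverse the morphine shares in 1 domain were 79.6% (horizontal-rich) and 82.0% (vertical-rich), and the interval of the latter's difference from balanced loops (-6.57 to 0.391 points) included 0.

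With anchors extended by 10 kb, sharing at the first anchor was 44.2% (saline) and 50.6% (morphine) for horizontal-rich and 20.5% and 26.6% for vertical-rich loops. At the second anchor it was 24.4% (saline) and 27.6% (morphine) for horizontal-rich and 46.4% and 56.5% for vertical-rich loops. With partners 200 kb or more away, sharing was 4.65% (first) and 5.81% (second) for saline horizontal-rich, 8.93% and 6.25% for saline vertical-rich, 13.8% (first) for morphine horizontal-rich and 10.5% (second) for morphine vertical-rich loops. With both backgrounds at or above 1, morphine horizontal-rich loops shared first anchors at 49.2% and 0 were differential, and saline vertical-rich loops lay in 1 domain at 93.0%. With boundaries of the saline map, 64.4% of morphine horizontal-rich loops had the first anchor nearer (53.4 to 74.4%). Centroids lay farther along the second axis at 70.0% of saline horizontal-rich loops with 3 or more pixels and 31.2% of morphine ones with 10 kb anchors. The cause of these moves was not tested, apart from far partners, who are fewer by construction.

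No paired analysis was possible because each list is pooled over its group and has no columns of single libraries. Leaving out each replicate was not run for the same reason. The depth of the libraries is unknown, so its effect was not tested, and the small number of members limits the precision of every share.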

Other observations

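A few windows of 2 Mb held several members each. They were picked after their values were seen, and most members lay elsewhere. Over all mid-range loops, 5.87% of saline and 4.19% of morphine loops were members. In the morphine map, 6 of the 9 mid-range loops from 22000001 to 24000000 on chromosome 19 were members, 5 of them vertical-rich. This window holds the 3 vertical-rich loops that share the second anchor at 22950001 to 22960000, so its members are not independent. From 14000001 to 16000000 on the same chromosome 5 of 19 were members, and all 5 were vertical-rich. On chromosome 13, 4 of 8 mid-range loops from 20000001 to 22000000 were vertical-rich. In the saline map, 3 of 8 loops from 40000001 to 42000000 on chromosome 16 were horizontal-rich, and from 44000001 to 46000000 on chromosome 7, 3 of 4 were members of mixed direction.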
